A study of Danio rerio with 10 samples.

Results

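The genes described here are the insulin-like growth factor (Igf) axis and the fibroblast growth factor (Fgf) hormones of the liver: igfbp1a, igfbp1b, igfbp2a, igf1, igf2a, igf2b, ghra, ghrb, fgf21 and fgf19. They were found by their Ensembl zebrafish names, and by the name without its paralog letter where the full name was not listed. The 10 names led to 11 of the 32105 gene identifiers in the count tables. The identifiers were IGFBP1 (ENSDARG00000099351, taken for igfbp1a), igfbp1b (ENSDARG00000038666), IGFBP2 under ENSDARG00000031422 and under ENSDARG00000052470, IGF1 (ENSDARG00000094132), igf2a (ENSDARG00000018643), igf2b (ENSDARG00000033307), ghra (ENSDARG00000054771), ghrb (ENSDARG00000007671), fgf21 (ENSDARG00000100846) and FGF19 (ENSDARG00000098663). The symbol IGFBP2 does not say which of its 2 identifiers is igfbp2a, so each is reported on its own. A synonym table of RefSeq crosses the names of igf2a and igf2b, and the names of the count tables' identifiers are kept here. How reads that fit more than 1 paralog were counted is not given in the sources used here, so the split of reads within each pair is uncertain.

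Growth hormone acts on the liver through its receptors and raises Igf1, a circulating growth signal that, like Igf2, acts through the Igf1 receptor. Igf binding proteins hold these ligands in the blood and tissue, and in mammals the liver raises IGFBP1 during fasting and amino acid shortage. FGF21 and FGF19 are hormones of metabolic state in mammals: FGF21 comes from the fasting or stressed liver, and FGF19 from the gut reports bile acids to the liver through FGFR4 and its co-receptor KLB.

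The libraries were made from pooled, dissected livers of zebrafish larvae that carry the nuclear fragment of the stress sensor Atf6 under the hepatocyte promoter fabp10, allele C of Tg(fabp10:nAtf6-cherry; cmlc2:GFP), and of their siblings. At 5 dpf (120 hpf), 3 nAtf6 TG and 3 sibling libraries, each from 25 pooled livers, represent 3 clutches of an outcross to the WT strain TAB 14, with larvae sorted by GFP in the heart. The description of the whole series names instead a cross with Tg(fabp10a:CAAX-EGFP), whose green livers guide dissection. At 78 hpf, all larvae came from that cross and had green livers, and each group has 2 libraries of 20 pooled livers, 1 for each of 2 clutches. The transgene is on only in hepatocytes, all nAtf6 fish derive from 1 allele, and each library is a pool of larvae. The 5 dpf libraries were depleted of ribosomal RNA, although their labels say polyA RNA, and the 78 hpf libraries were selected for polyA, so age and library preparation cannot be told apart.

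At 78 hpf the titles and the deposited names of the libraries give opposite groups, and the description of the sorting goes with the deposited names. The group deposited as nAtf6 and titled sibling is therefore written "deposited as nAtf6", the group deposited as SIBS and titled transgenic is written "deposited as SIBS", and every 78 hpf direction below is deposited as nAtf6 minus deposited as SIBS. With the titles taken as true, every 78 hpf sign turns round. The gene of the transgene was read first as a check. At 5 dpf, atf6 (ENSDARG00000012656), on which transgene and endogenous reads both fall, had 447, 559 and 552 CPM (counts scaled to 1000000 counts on genes) in nAtf6 TG livers, against 100.5, 73.4 and 86.1 CPM in sibling livers, a log2 fold change of 2.52 (SE 0.20, adjusted p = 0.000322). At 78 hpf it had 189 and 326 CPM in the libraries deposited as nAtf6, against 80.8 and 48.5 CPM in those deposited as SIBS, which goes against the titles. HSPA5, HSP90B1, PDIA4, SDF2L1 and DNAJB11 are chaperones and folding factors of the endoplasmic reticulum. Their groups did not overlap at either age, and they were higher in nAtf6 TG livers and in the libraries deposited as nAtf6. Groups without overlap made up 36.1% of all genes tested at 5 dpf and 37.0% at 78 hpf. At 78 hpf their log2 fold changes were 2.95, 2.85, 3.43, 2.98 and 1.74, and that of atf6 was 1.99. None of the 6 was called by edgeR at that age, with adjusted p between 0.221 and 0.689.

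The libraries held 17622825 to 22963880 counts on genes at 5 dpf and 4868321 to 6354867 at 78 hpf. Sibling library 2 stood apart at 5 dpf: its TMM scaling factor was 0.758 while those of the other libraries lay between 1.02 and 1.11, and the 10 most abundant genes took 43.1% of its counts. Its summed hepatocyte markers were 90206 CPM, against 64493 and 74650 CPM in the other siblings. nAtf6 TG libraries 2 and 3 resembled each other, and library 1 lay nearer to the siblings for many genes below. Hepatocyte markers were high in every library, and the sums of the 8 listed lay between 46709 and 49979 CPM in nAtf6 TG livers, against 64493 and 90206 CPM in siblings. Of the 8, none was called higher and CP was called lower, with a median log2 fold change of -0.73. Exocrine pancreas markers, of which 4 of 8 names were matched, summed to between 367 and 542 CPM in nAtf6 TG livers, against 512 and 1558 CPM in siblings. Of the 4 tested, prss1, prss59.1 and ela2 were called lower and 0 higher, with a median log2 fold change of -1.44. Over all genes tested at 5 dpf, 13.7% were called higher and 7.48% lower. At 5 dpf, muscle markers summed to 274, 47.4 and 45.0 CPM in nAtf6 TG livers, against 394, 121 and 403 CPM in siblings. Stellate and mesenchyme markers summed to 96.9, 56.3 and 66.2 CPM in nAtf6 TG livers, against 152, 68.9 and 159 CPM in siblings. No tested gene of either list was called. Of 4 endothelial markers tested, only stab2 was called higher and 0 lower, with a median log2 fold change of 0.34. Of 3 erythrocyte identifiers tested, 1 SLC4A1 identifier was called lower and 0 higher. Of 5 macrophage identifiers tested, 2 were called higher and 1 lower. At 78 hpf, the second library deposited as nAtf6 held pancreas RNA, with exocrine and endocrine markers at 2481 and 269.5 CPM, against 74.4 and 6.61 CPM in the first, and no more than 22.0 and 1.23 CPM in those deposited as SIBS. Muscle markers, of which 3 of 4 names were matched, were highest in the second library deposited as SIBS, at 3110 CPM. The part of these differences in the results below was not tested, and in pooled tissue fewer cells of a type and less RNA per cell cannot be told apart.

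At 5 dpf, the Igf binding protein IGFBP1 was higher in nAtf6 TG livers, and IGFBP2 (ENSDARG00000052470), igf2a and ghra were lower. These 4 were the genes called at an adjusted p under 0.05 among the 9 of the 11 that passed the filter on low counts. Over all 18470 genes tested, 21.2% were called, 13.7% higher and 7.48% lower, and the 9 genes had a median log2 fold change of -1.01 beside -0.04 over all genes tested. That gap rests on sibling library 2: without it the medians were -0.05 and -0.055. The groups did not overlap in CPM for 5 of the 9, against 36.1% of all genes tested. IGF1 and fgf21 were near the detection limit at both ages.

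**Figure D1:**
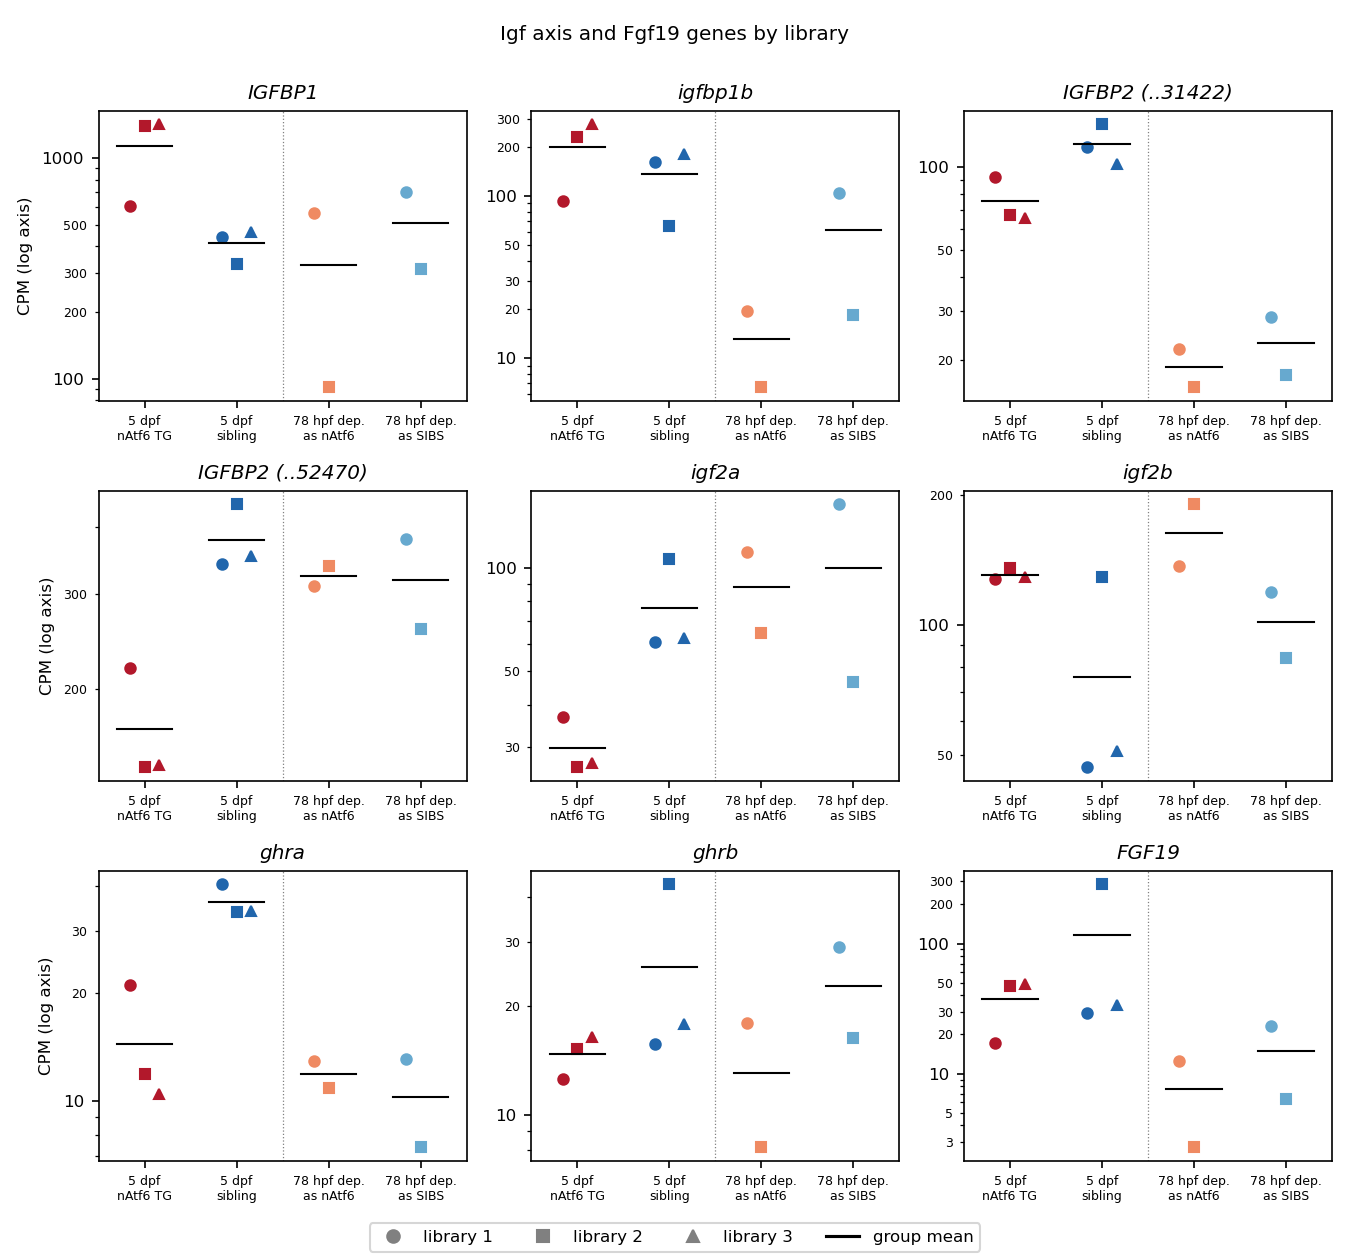
CPM on a log axis for the 9 genes that passed the filter, with 1 panel a gene, a point for each library (circle, square and triangle for libraries 1, 2 and 3) and a line at the group mean; the 78 hpf groups are named as deposited, opposite to their titles. IGFBP1 lies higher in all 3 nAtf6 TG livers than in the siblings at 5 dpf, igf2a, ghra and both IGFBP2 identifiers lie lower, and sibling library 2 (dark blue square) lies far above the other siblings for FGF19, igf2b and ghrb.

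Among the binding proteins, IGFBP1 had 605, 1394 and 1424 CPM in nAtf6 TG livers, against 441, 331 and 461 CPM in sibling livers. Every nAtf6 TG library lay above every sibling, with library 1 nearest to them. The log2 fold change was 1.42 (SE 0.33, 95% interval 0.64 to 2.20, adjusted p = 0.0247), which is 2.67-fold. The call was lost, at log2 fold changes of 1.25 to 1.43 and adjusted p of 0.0914 to 0.133, without nAtf6 TG library 2 or 3, without sibling library 1 or 3, with nAtf6 TG libraries 2 and 3 summed, and in 1 model over all 10 libraries. Its paralog igfbp1b had 93.8, 233 and 277 CPM in nAtf6 TG livers, against 163, 64.9 and 183 CPM in sibling livers. The groups overlapped, and the log2 fold change of 0.57 (SE 0.42, 95% interval -0.42 to 1.55, adjusted p = 0.363) was within the spread between libraries. Both igfbp1 genes were lowest among the nAtf6 TG livers in library 1. In CPM both were lowest among the siblings in library 2, but after TMM scaling IGFBP1 was highest there, at 436.5 scaled CPM, against 397 and 417 in the other siblings. In zebrafish embryos the igfbp1 genes are known as brakes on growth during low oxygen.

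IGFBP2 encodes another Igf binding protein that the liver secretes. Under ENSDARG00000052470 it had 219, 143 and 144 CPM in nAtf6 TG livers, against 341, 441 and 353 CPM in sibling livers. All nAtf6 TG libraries lay below all siblings, and the log2 fold change was -1.29 (SE 0.32, 95% interval -2.04 to -0.54, adjusted p = 0.0294), 2.45-fold lower. The call was lost at log2 fold changes of -1.46 to -1.15, and adjusted p of 0.0506 to 0.146, without nAtf6 TG library 2 or 3, without sibling library 1 or 3 and with libraries 2 and 3 of nAtf6 TG summed. The call was also lost with replicate number as a block, at -1.25 (adjusted p = 0.0557). Under ENSDARG00000031422, IGFBP2 had 92.7, 67.5 and 65.7 CPM in nAtf6 TG livers, against 119, 143 and 103 CPM in sibling livers. These groups did not overlap either, but the log2 fold change of -0.82 (SE 0.30, 95% interval -1.53 to -0.11) missed the threshold with an adjusted p of 0.0949.

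Of the ligands, igf2a had 36.7, 26.2 and 27.0 CPM in nAtf6 TG livers, against 60.8, 106 and 62.8 CPM in sibling livers. The groups did not overlap, and sibling library 2 was the highest. The log2 fold change was -1.52 (SE 0.39, 95% interval -2.44 to -0.60, adjusted p = 0.0340). It was -0.91 without sibling library 2, with an adjusted p of 0.0124. The call was lost without nAtf6 TG library 2 or 3, with both summed and in the model over all 10 libraries, at log2 fold changes of -1.52 to -1.40 and adjusted p of 0.0820 to 0.147. The call was also lost with replicate number as a block, at -1.38 (adjusted p = 0.0560).

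The other Igf2 gene, igf2b, had 128, 136 and 129 CPM in nAtf6 TG livers, against 46.8, 130 and 51.1 CPM in sibling livers. The nAtf6 TG libraries were nearly equal, while sibling library 2 reached their level in CPM and the other siblings lay far below. With all libraries the log2 fold change was 0.57 (SE 0.52, 95% interval -0.65 to 1.78, adjusted p = 0.460). Without sibling library 2 it was 1.55 (SE 0.12, adjusted p = 0.000651), so that this library decides whether igf2b is called. The siblings left in that fit lay close together, so its SE leaves out the spread that sibling library 2 shows. igf2b was also the only member to enter the called set in that fit, in which 2 of the 9 genes were called higher and 3 lower. Over all genes, 7598 of 20061 were called in that fit, against 3913 of 18470 with all libraries.

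The ratio of the Igf2 genes within a library does not depend on how libraries are scaled. It was looked at after the values were seen and is given as a description. A library held 3.49, 5.17 and 4.80 igf2b reads per igf2a read in nAtf6 TG livers, against 0.770, 1.22 and 0.815 in sibling livers. All nAtf6 TG libraries lay above all siblings, sibling library 2 included. At 78 hpf the ratio was 1.23 and 2.94 in the libraries deposited as nAtf6, against 0.778 and 1.80 in those deposited as SIBS, and the groups overlapped. At 5 dpf IGFBP1 had 2.77, 9.78 and 9.89 reads per read of IGFBP2 (ENSDARG00000052470) in nAtf6 TG livers, against 1.29, 0.750 and 1.30 in siblings. Both genes already lay apart in CPM in opposite directions, so this ratio had to separate and adds no support. At 78 hpf it was 1.81 and 0.270 in the libraries deposited as nAtf6, against 1.85 and 1.22 in those deposited as SIBS. Of the other ratios within pairs at 5 dpf, ghrb to ghra overlapped, at 0.596, 1.27 and 1.58 in nAtf6 TG livers, against 0.386, 1.28 and 0.522 in siblings. Those of IGFBP1 to igfbp1b and between the IGFBP2 identifiers did not overlap. These ratios carry the lengths of both genes, so that only their differences between libraries can be read.

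**Figure D2:**
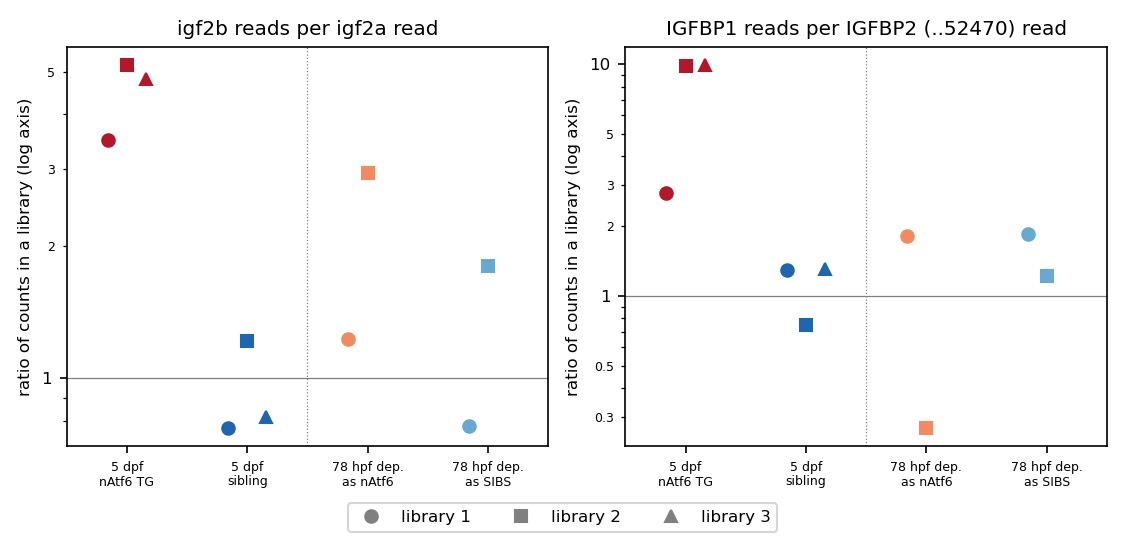
Ratio of the counts of igf2b to igf2a (left) and of IGFBP1 to IGFBP2 ENSDARG00000052470 (right) in each library, on log axes with a grey line at 1; points are libraries, and the 78 hpf groups are named as deposited, opposite to their titles. At 5 dpf the igf2b to igf2a ratio runs between 3.49 and 5.17 in nAtf6 TG livers and between 0.770 and 1.22 in siblings, while at 78 hpf the groups overlap.

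IGF1, the main growth ligand of the adult liver, was close to undetected. It had 2, 3 and 5 counts in nAtf6 TG livers, against 10, 2 and 9 counts in siblings, and 0 and 0 counts in the libraries deposited as nAtf6, against 0 and 3 counts in those deposited as SIBS. The largest of these, 10 counts in sibling library 1, is 0.498 CPM (95% exact binomial interval 0.239 to 0.916, counting error only). The limit set by a count of 0, taken as 3 counts, is 0.472 and 0.508 CPM in the libraries deposited as nAtf6 and 0.523 CPM in the first deposited as SIBS. The groups overlapped, IGF1 did not pass the filter on low counts, and with no filter its log2 fold change at 5 dpf was -0.88 (SE 0.69, adjusted p = 0.431), so that no difference was detectable at this depth.

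Of the growth hormone receptors, ghra had 21.1, 11.9 and 10.4 CPM in nAtf6 TG livers, against 40.5, 33.9 and 34.0 CPM in sibling livers. The siblings lay close together and above all nAtf6 TG libraries, of which library 1 was the highest. The log2 fold change was -1.40 (SE 0.30, 95% interval -2.09 to -0.70, adjusted p = 0.0174). It was lost as a call without nAtf6 TG library 2 or 3, without sibling library 1 and with nAtf6 TG libraries 2 and 3 summed, at -1.43 to -1.19 and adjusted p of 0.0585 to 0.0912. The paralog ghrb had 12.6, 15.2 and 16.4 CPM in nAtf6 TG livers, against 15.6, 43.2 and 17.8 CPM in sibling livers. Its groups overlapped, and its log2 fold change of -1.01 (SE 0.52, adjusted p = 0.200) became -0.05 without sibling library 2.

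Of the Fgf hormones, FGF19 had 17.2, 47.3 and 48.7 CPM in nAtf6 TG livers, against 29.1, 285 and 33.9 CPM in sibling livers. A single library, sibling library 2, held most of its sibling reads, and the other siblings lay within the nAtf6 TG range. The log2 fold change was -1.97 (SE 1.03, 95% interval -4.38 to 0.44, adjusted p = 0.207), and it turned to 0.39 (SE 0.42, adjusted p = 0.493) without that library. Intestine markers summed to 2404, 1711 and 1654 CPM in nAtf6 TG livers, against 1983, 2839 and 2230 CPM in siblings. The sum was highest in sibling library 2 and rests mostly on apoa4b.1, at 2734 CPM there. VIL1 had 13.5 CPM in that library, against 71.2 and 78.1 CPM in the other siblings. FABP2 was also lowest there among the siblings in CPM, at 91.7 against 106 and 114, but not after TMM scaling. The part of these markers in the FGF19 level was not tested.

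The receptor pair of FGF19 and the bile acid enzyme it restrains in mammals were singled out after their values were seen. fgfr4 (ENSDARG00000069105) had 7.59, 15.9 and 15.0 CPM in nAtf6 TG livers, against 12.0, 8.16 and 11.6 CPM in siblings, with a log2 fold change of 0.23 (adjusted p = 0.570). The co-receptor klb (ENSDARG00000076294) had 1.73, 2.38 and 1.96 CPM in nAtf6 TG livers, against 4.58, 0.449 and 4.75 CPM in siblings, with a log2 fold change of -0.62 (adjusted p = 0.487). CYP7A1 (ENSDARG00000069018), the rate-limiting enzyme of bile acid synthesis, had 25.4, 23.1 and 24.0 CPM in nAtf6 TG livers, against 27.0, 145 and 29.5 CPM in siblings, with a log2 fold change of -1.77 (SE 0.77, adjusted p = 0.140). None of these was called, and sibling library 2, the highest for FGF19, was also the highest for CYP7A1 and the lowest for klb.

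The other Fgf hormone, fgf21, had 2, 6 and 5 counts in nAtf6 TG livers, against 5, 1 and 3 counts in siblings, and 3 and 0 counts in the libraries deposited as nAtf6, against 0 and 0 in those deposited as SIBS. Its groups overlapped, and it did not pass the filter on low counts. With no filter its log2 fold change at 5 dpf was 0.67 (SE 0.77, adjusted p = 0.576).

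**Figure D3:**
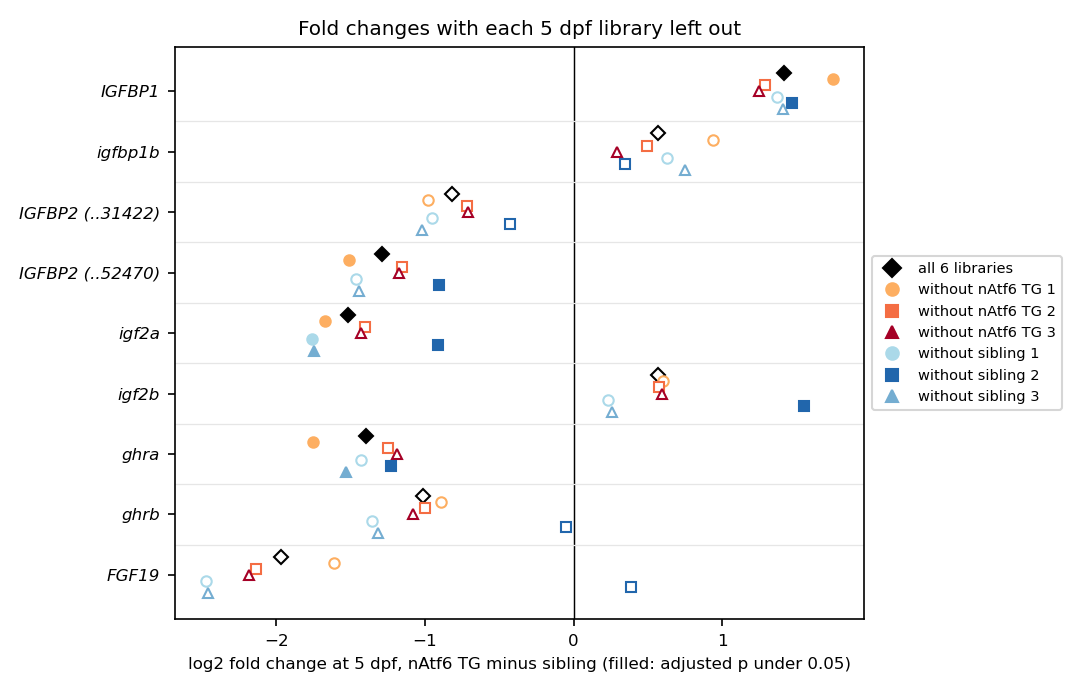
Log2 fold change at 5 dpf (nAtf6 TG minus sibling) of the 9 tested genes with all 6 libraries (black diamond) and with each library left out in turn; filled points have an adjusted p under 0.05. Without sibling library 2 (blue square) igf2b stands at 1.55, ghrb at -0.05 and FGF19 at 0.39, while without nAtf6 TG library 2 or 3 none of the 9 is called. Over all genes, 1361 of 20077 and 1405 of 19882 were called without nAtf6 TG library 2 and 3, against 3913 of 18470 with all libraries.

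Counted over the 9 genes, leaving out nAtf6 TG library 2 or 3, or summing both, left 0 called, leaving out sibling library 1 left 1 and leaving out sibling library 3 left 2. Leaving out nAtf6 TG library 1 kept 4 called and leaving out sibling library 2 gave 5. The median of the 9 was -0.05 without sibling library 2, against -1.01 with it, and that over all genes tested was -0.055, against -0.036. The calls over all genes moved with these fits, from 3913 of 18470 with all libraries. They were 1361 of 20077 without nAtf6 TG library 2, 1405 of 19882 without library 3 and 1417 of 20051 with both summed. They were 1714 of 18912 without sibling library 1 and 1692 of 18643 without sibling library 3. Without nAtf6 TG library 1 they were 5778 of 20181, and without sibling library 2 they were 7598 of 20061.

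At 78 hpf, none of the 9 genes that passed the filter was called between the libraries deposited as nAtf6 (titled sibling) and those deposited as SIBS (titled transgenic). Over all 14555 genes tested, 0.0% were called by edgeR and 869 had an unadjusted p under 0.05. DESeq2, run on 23500 genes without the filter on low counts, called 180. The median log2 fold change was -0.31 over the 9 genes and -0.02 over all genes tested. IGFBP1 had 565 and 91.4 CPM in the libraries deposited as nAtf6, against 706 and 315 CPM in those deposited as SIBS. The groups overlapped, with a log2 fold change of -0.69 (SE 0.95). igfbp1b had 19.5 and 6.60 CPM in the libraries deposited as nAtf6, against 105 and 18.5 CPM in those deposited as SIBS, the largest fold change among the 9 at this age at -2.30 (SE 1.04, 95% interval -5.08 to 0.48, adjusted p = 0.814). Its groups overlapped as well, although within each clutch of the titles the library deposited as nAtf6 was the lower.

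igf2b was the only member whose groups did not overlap at 78 hpf, which 37.0% of all genes tested did not. It had 137 and 191 CPM in the libraries deposited as nAtf6, against 119 and 83.8 CPM in those deposited as SIBS, with a log2 fold change of 0.69 (SE 0.36, adjusted p = 0.814). igf2a, in contrast, had 112 and 64.8 CPM in the libraries deposited as nAtf6, against 154 and 46.6 CPM in those deposited as SIBS, with a log2 fold change of -0.23 (SE 0.69). IGFBP2 (ENSDARG00000052470) had 311 and 338 CPM in the libraries deposited as nAtf6, against 381 and 258 CPM in those deposited as SIBS, and its log2 fold change was 0.02 (95% interval -0.85 to 0.89). ghra had 12.9 and 10.8 CPM in the libraries deposited as nAtf6, against 13.1 and 7.39 CPM in those deposited as SIBS, with a log2 fold change of 0.19 (95% interval -0.92 to 1.31). These genes, called lower in nAtf6 TG livers at 5 dpf, overlapped between the groups here. ghrb, FGF19 and IGFBP2 (ENSDARG00000031422) overlapped too, at log2 fold changes of -0.82, -1.02 and -0.31.

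The clutches stood in the same order for several of these genes. The clutch numbers are those of the titles, which the deposited names do not all match, and with the numbers crossed in 1 group these genes would have opposite orders. In 7 of the 9, clutch 1 had the higher CPM in both groups, against 20.3% of all genes tested, and in 0 of the 9 did clutch 2, against 27.7%. FGF19, for example, had 12.6 CPM in clutch 1 and 2.71 CPM in clutch 2 of the libraries deposited as nAtf6, and 23.4 CPM and 6.37 CPM in those deposited as SIBS. The clutches also differed in markers of other cells. Besides the pancreas markers above, stellate and mesenchyme markers summed to 2402 and 89.2 CPM in clutches 1 and 2 of the libraries deposited as nAtf6, against 763 and 6047 CPM in those deposited as SIBS. Muscle markers summed to 475 and 37.2 CPM in the libraries deposited as nAtf6, against 749 and 3110 CPM in those deposited as SIBS. The part of these in the levels was not tested.

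**Figure D4:**
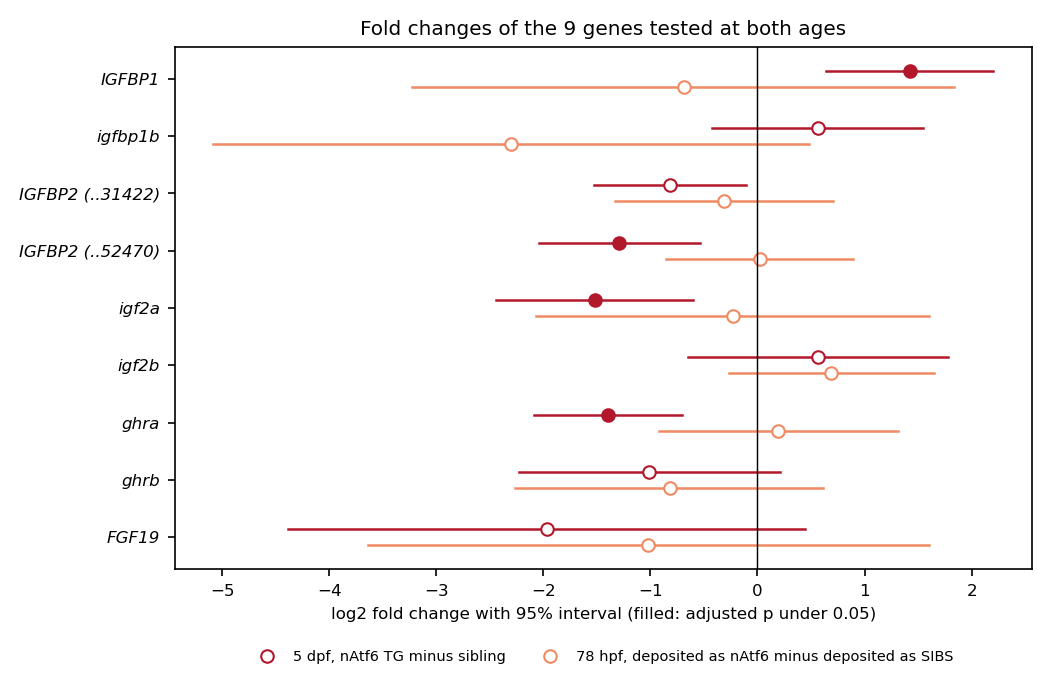
Log2 fold changes with 95% intervals of the 9 tested genes at 5 dpf (nAtf6 TG minus sibling) and at 78 hpf (deposited as nAtf6 minus deposited as SIBS, opposite to the titles); filled points have an adjusted p under 0.05. IGFBP1, IGFBP2 ENSDARG00000052470, igf2a and ghra are filled at 5 dpf, and all 9 intervals at 78 hpf include 0.

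The contrast at 78 hpf minus that at 5 dpf was tested in 1 model over all libraries. None of the 9 genes was called, where 0.068% of 20595 genes were, 14 in number, and 2728 had an unadjusted p under 0.05. The difference was 1.71 for ghra (SE 0.55, adjusted p = 0.242), 1.44 for IGFBP2 ENSDARG00000052470 (SE 0.56, adjusted p = 0.310), -2.04 for IGFBP1 (SE 0.92, adjusted p = 0.380) and, the largest, -2.81 for igfbp1b (SE 1.04, 95% interval -5.12 to -0.49, adjusted p = 0.293). An effect particular to 5 dpf was therefore not shown for any of them. Levels at both ages are only set side by side, since library preparation differed and CPM of the ages are not on the same scale. No change with age can be read from them. IGFBP2 under ENSDARG00000031422 stood at 65.7 to 143 CPM in all 5 dpf libraries and at 15.9 to 28.6 CPM in all 78 hpf libraries. Under ENSDARG00000052470 it had 143 to 219 CPM in 5 dpf nAtf6 TG livers, 341 to 441 CPM in 5 dpf siblings and 258 to 381 CPM at 78 hpf. ghra had 10.4 to 21.1 CPM in 5 dpf nAtf6 TG livers, 33.9 to 40.5 CPM in 5 dpf siblings and 7.39 to 13.1 CPM at 78 hpf. igf2a had 26.2 to 36.7 CPM in 5 dpf nAtf6 TG livers, 60.8 to 106 CPM in 5 dpf siblings and 46.6 to 154 CPM at 78 hpf.

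The wider Igf system was described from lists chosen with earlier results of these data known. Their counts are read beside the 13.7% of all genes tested that were called higher and the 7.48% called lower. Of 18 identifiers of binding proteins, carriers and proteases, 13 were tested, 2 were called higher and 3 lower, with a median log2 fold change of -0.46. STC2 (ENSDARG00000056680) is stanniocalcin 2, which in mammals inhibits the Igf binding protein protease PAPPA. STC2 had 3.96, 11.0 and 10.7 CPM in nAtf6 TG livers, against 1.39, 0.897 and 1.47 CPM in sibling livers. It rose by a log2 fold change of 2.72 (SE 0.40, adjusted p = 0.00449), with no overlap. PAPPA itself (ENSDARG00000101090) had 0.542, 0.284 and 0.479 CPM in nAtf6 TG livers, against 1.64, 0.673 and 1.99 CPM in siblings. It was called lower, at -1.70 (SE 0.41, adjusted p = 0.0277), from levels under 2 CPM in every library. IGFBP3, a carrier of Igfs in the blood, had 12.8, 31.0 and 31.8 CPM in nAtf6 TG livers, against 9.61, 4.71 and 9.64 CPM in sibling livers, a log2 fold change of 1.64 (SE 0.35, adjusted p = 0.0176). IGFBP5 (ENSDARG00000039264) had 1.68, 1.59 and 1.57 CPM in nAtf6 TG livers, against 3.93, 2.65 and 4.61 CPM in siblings, a log2 fold change of -1.24 (SE 0.21, adjusted p = 0.00708). Both were without overlap between the groups. The third of the lower genes was IGFBP2 (ENSDARG00000052470), above. STC2, PAPPA and IGFBP5 each have another identifier in the list, and none of those was called. Since 13 of the 18 identifiers were tested, an identifier without a call may also be untested.

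The counts for receptors and adaptors are likewise read beside the 21.2% of all genes called. Of 12 Igf and insulin receptors and adaptors tested, 1 was called higher and 0 lower, with a median of 0.14. This was the insulin receptor INSR (ENSDARG00000071524), with 101.5, 98.7 and 98.3 CPM in nAtf6 TG livers, against 71.8, 53.4 and 56.8 CPM in sibling livers. Its log2 fold change was 0.65 (SE 0.17, adjusted p = 0.0388), and its call was lost under 8 of 13 alternatives. The other INSR identifier, ENSDARG00000011948, was tested and not called. Of 10 tested genes of growth hormone and prolactin receptor signalling, members aside, 1 was called higher and 0 lower, with a median of 0.03. It was the prolactin receptor PRLR, with 4.66, 15.1 and 16.1 CPM in nAtf6 TG livers, against 4.83, 1.17 and 4.04 CPM in siblings. Here nAtf6 TG library 1 lay within the sibling range, and the log2 fold change was 1.86 (SE 0.53, adjusted p = 0.0443). Of 12 tested Fgf receptors, co-receptors and genes of the bile acid arm, 0 were called higher and 1 lower, with a median of -0.81. This was FGFR3, an Fgf receptor, with 6.50, 3.92 and 5.01 CPM in nAtf6 TG livers, against 15.2, 7.04 and 13.5 CPM in siblings, a log2 fold change of -1.22 (SE 0.24, adjusted p = 0.0134).

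**Figure D5:**
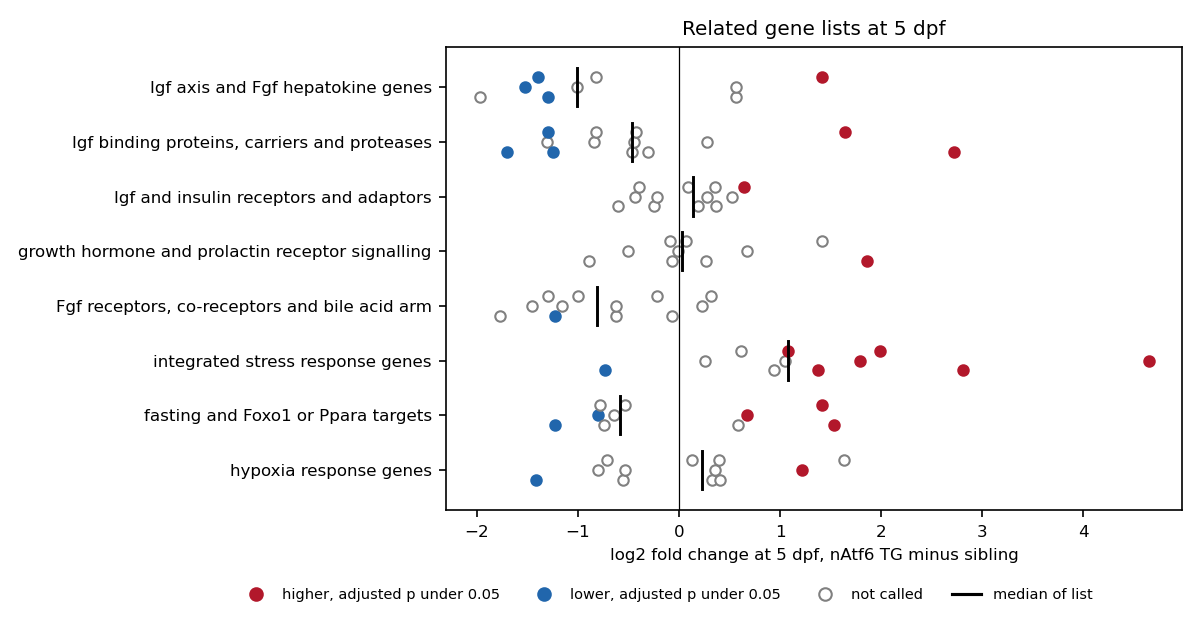
Log2 fold change at 5 dpf (nAtf6 TG minus sibling) of every tested gene in the Igf axis and Fgf hepatokine set and in 7 related lists, 1 list a row and 1 point a gene, with a bar at the median; red and blue points are called higher and lower. The lists were chosen with earlier results of these data known. The integrated stress response row has 6 genes called higher of 11, beside 13.7% of all genes tested, and a median of 1.08. The medians are 0.14 for the Igf and insulin receptors, 0.03 for the growth hormone and prolactin list and -0.81 for the Fgf receptors and bile acid genes.

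Lists of programs that in mammals act on IGFBP1 or FGF21 were set beside them. These lists too were chosen with earlier results of these data known, so their counts are a description and no independent support. Of 11 integrated stress response genes tested at 5 dpf, 6 were called higher and 1, ppp1r15a, lower, with a median log2 fold change of 1.08. Over all genes tested, 13.7% were called higher and 7.48% lower. PSAT1, an enzyme of serine synthesis, had 15.6, 77.9 and 74.8 CPM in nAtf6 TG livers, against 2.99, 0.942 and 2.80 CPM in sibling livers, the largest change of the list at 4.65 (SE 0.66, adjusted p = 0.00373). ATF3 and DDIT3, transcription factors of the stress response, rose by 2.81 (SE 0.47, adjusted p = 0.00697) and 1.99 (SE 0.25, adjusted p = 0.00217). ASNS, asparagine synthetase, rose by 1.38, sesn2 by 1.79 and atf4b by 1.08. In PSAT1, ATF3 and STC2, as in IGFBP1, nAtf6 TG library 1 stood between the siblings and the other nAtf6 TG libraries. The same held for genes outside this list, among them HSPA5, IGFBP3, ghra and BNIP3.

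Of the fasting and Foxo1 or Ppara target list, for which 76.9% of names were matched, 10 genes were tested, 3 were called higher and 2 lower, with a median of -0.59. The shares over all genes tested were 13.7% higher and 7.48% lower. PCK1, which makes phosphoenolpyruvate for glucose synthesis, had 1728, 1848 and 2083 CPM in nAtf6 TG livers, against 617, 593 and 628 CPM in sibling livers, a log2 fold change of 1.54 (SE 0.23, adjusted p = 0.00427). The coactivator PPARGC1A and the transcription factor FOXO1 (ENSDARG00000099555) rose by 1.42 and 0.67. The other FOXO1 identifier, ENSDARG00000061549, was tested and not called. The fatty acid carrier enzyme cpt1ab and the lipase inhibitor ANGPTL4 changed by -1.23 and -0.80, so that the called genes of this list did not share a direction. Of 12 hypoxia response genes tested, against the same 21.2% called over all genes, 1 was called higher, VEGFA (ENSDARG00000103542) at 1.21, and 1 lower, BNIP3 at -1.41, with a median of 0.23. The other VEGFA identifier, ENSDARG00000034700, was tested and not called. At 78 hpf 0 genes of these 7 lists were called.

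Among the members, atf6 and the named genes of these lists, 7 were called under every alternative run: atf6, STC2, PSAT1, ATF3, DDIT3, ASNS and sesn2. The 4 called members kept their call in 7 (IGFBP1), 7 (IGFBP2), 8 (igf2a) and 9 (ghra) of 13 alternatives. The called genes PAPPA, IGFBP3, INSR, PRLR, FGFR3, atf4b, cpt1ab, FOXO1, BNIP3 and VEGFA lost their call without nAtf6 TG library 2 or 3 and without sibling library 1 or 3, PRLR also without sibling library 2. IGFBP5 and ANGPTL4 lost theirs without nAtf6 TG library 2 or 3, ANGPTL4 and PPARGC1A without sibling library 3, and PPARGC1A without nAtf6 TG library 3. PCK1 lost its call in the model over all 10 libraries. Without sibling library 2, 7 of the 11 integrated stress response genes tested were called higher and 1 lower. For the binding proteins, carriers and proteases the counts were 3 and 7 of 15 tested. They were 0 and 5 of 12 for the Fgf receptors and bile acid genes, and 5 and 2 of 10 for the fasting genes. Over all 20061 genes tested without sibling library 2, 3888 were called higher and 3710 lower. Without nAtf6 TG library 2 these lists had 5 and 0 of 11, 1 and 0 of 14, 0 and 0 of 12, and 2 and 0 of 10, in the same order. Over all 20077 genes tested in that fit, 1128 were called higher and 233 lower.

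The genes most like FGF19 and igf2a, which had the largest fold changes at 5 dpf with all libraries (FGF19 turned direction without sibling library 2), were found by Pearson's r of log2(TMM CPM + 1) over the 10 libraries, among 10963 genes. For FGF19 they were ENSDARG00000076142 (r = 0.973), CTPS1 (r = 0.969) and PTPN13 (r = 0.955), and for igf2a they were DCXR (r = 0.959), IYD (r = 0.944) and CYP27B1 (r = 0.935). The points share ages and library preparations, so these values describe shared patterns over the 10 libraries and carry no test. For FGF19, sibling library 2 stood at 285 CPM and every other library at no more than 48.7 CPM. The part of that library in its r values was not tested.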

How the data were processed

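For each Ensembl gene the authors deposited raw read counts, in 1 table for the 6 libraries of 5 dpf and in 1 list for each 78 hpf library. Their processing notes name HTSeq, DESeq2 and build GRCz10, with FastQC 0.11.5, Trimmomatic and TopHat2 2.1.0 at 5 dpf and CASAVA and MultiQC 1.7 at 78 hpf; the annotation release is not given in the sources used here. Entries of the 78 hpf lists that name no gene held 35.3% to 47.4% of their counts and were left out.

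CPM are counts over all counts on genes. The test was the quasi-likelihood test of edgeR 4.0.16, run in R 4.3.3 (TMM, filterByExpr, Benjamini-Hochberg over all genes tested, called at adjusted p under 0.05), checked on simulated data. Fold changes are TMM-scaled and intervals use the t distribution. DESeq2 1.42.0 was an alternative, with RLE scaling, other filters, left-out libraries, a replicate block, 1 model over all libraries and summed libraries.

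The members and lists were chosen with earlier results of these data known. Named list genes were those called at 5 dpf, at most the 6 with the largest change per list. Lists were described by counts and medians only. No genome or sequence was used, so no coordinates, promoters or proteins are given. Each library is a pool of livers. Same-numbered 5 dpf libraries had deviations correlated at 0.0834, 0.0622 and -0.0649 over 18470 genes, which gave no ground to pair them by number. With so few libraries this cannot exclude pairing by clutch, so the fit with a replicate block is given as an alternative. At 78 hpf the numbers are clutch numbers in the titles, with a correlation of -0.153 over 14555 genes, and the numbers in the deposited names do not all match them.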

Additional observations from a re-analysis of the deposited data

How the results depend on the processing

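With sibling and nAtf6 TG libraries left out in turn, the genes called at 5 dpf ranged from 1361 (without nAtf6 TG replicate 2) to 7598 (without sibling replicate 2), and 1417 were called with nAtf6 TG libraries 2 and 3 summed, against 3913. At 78 hpf the calls were 180 with DESeq2, 8 with no filter, 1 with a minimum of 10 counts per library and 117 in 1 model over all libraries, against 0. For the difference of the contrasts they were 1786 in the direction of the titles, 77 with that minimum and 0 with the replicate block, against 14. 

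The member values kept their direction at 5 dpf in all alternatives except FGF19, which ran from -2.47 to 0.39 with libraries left out and was positive only without sibling library 2. At 78 hpf, where no member was called, leaving out 1 library turned the direction of IGFBP1 (range -2.45 to 0.19, with 0.08 without the second library deposited as nAtf6), IGFBP2 ENSDARG00000031422 (-0.68 to 0.25), IGFBP2 ENSDARG00000052470 (-0.30 to 0.50), igf2a (-0.89 to 1.07), ghra (-0.22 to 0.84) and FGF19 (-2.44 to 0.40). IGFBP2 ENSDARG00000052470 also stood at -0.01 with the minimum of 10 counts. The difference of the contrasts turned for igfbp1b (1.62) and igf2b (-1.39) in the direction of the titles.

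The replicate block called 3128 genes at 5 dpf and 0 at 78 hpf. At 5 dpf it gave IGFBP2 ENSDARG00000052470 -1.25 (adjusted p = 0.0557) and igf2a -1.38 (adjusted p = 0.0560), both no longer called, and INSR, PRLR, ANGPTL4 and FOXO1 lost their calls too. At 78 hpf it gave igf2a 0.01 and igfbp1b -1.97 (SE 0.41, beside 1.04 without the block, adjusted p = 0.877). The SE of FGF19 was 0.28 beside 0.98 and that of ghrb 0.24 beside 0.53, while that of igf2b was 0.42 beside 0.36. In the difference the replicate block gave igf2b -0.08 and ghrb -0.01. A crossed replicate block, chosen after seeing the data, called 0 genes at 78 hpf and left 1293 under an unadjusted p of 0.05. It gave igf2a 0.01 and igfbp1b -1.92 (SE 1.21). The causes were not tested. At 78 hpf, with 2 libraries a group and fewer counts, all 9 member intervals include 0.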
